A study of Mus musculus with 4 samples.

Results

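The genes described here are the chains of the T cell receptor complex and the enzymes, adaptors and transcription factors that carry or restrain its first signals. The set named 38 genes, and a gene was measured where a probe set of the array carried its symbol alone. This held for 36 of the 38, out of 17097 genes measured in all: 23 activators, 10 inhibitors and 3 genes with reported roles in both directions. Lck and Csk were not analysed here. Where a gene had several probe sets, the one with the highest mean over the arrays was used. All values are log2 signals, so that a difference of 1 is a 2-fold ratio of signals.

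RNA came from CD4+CD8+ double-positive thymocytes of C57BL/6 mice, isolated by fluorescence-activated cell sorting, with 1 array per sample. Of the 4 arrays, 2 were labelled wild type and 2 came from mice that combined the hCD2-iCre transgene with a homozygous floxed Gfi1 gene (Gfi1fl/fl in what follows). In hCD2-iCre mice, control elements of the human CD2 gene drive an improved Cre recombinase in lymphoid cells from their early progenitors on. Nothing in the labels says whether wild-type mice had the transgene as well, so effects of the recombinase and of the floxed gene cannot be told apart. No mice were treated, and ages are not given in the sources used here. Each title names a mouse and a replicate number without saying that replicates were separate animals, so p-values measure the spread between these samples only. The Gfi1 probe set itself read 10.17 and 10.08 on the wild-type arrays and 11.47 and 11.32 on the Gfi1fl/fl arrays, higher on the arrays whose label says the gene was targeted. Its place relative to the floxed part is not given in the sources used here. Directions are accordingly given between arrays as they were labelled, not between absence and presence of the gene.

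A double-positive thymocyte tests its newly made alpha-beta receptor on self peptides, and the strength of the resulting signal decides between death, survival and lineage choice. The receptor has no enzyme of its own: its CD3 and zeta chains carry tyrosine motifs that Src-family kinases phosphorylate, and ZAP-70 docks there and phosphorylates the scaffolds LAT and SLP-76. From that platform, phospholipase C-gamma opens a calcium branch to calcineurin and NFAT, a Ras branch, and a branch through protein kinase C-theta to NF-kappaB. Phosphatases, Csk, ubiquitin ligases, diacylglycerol kinases and Dok adaptors limit each step.

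None of the 36 members was called between the labels at an adjusted p of 0.05 (limma, Benjamini-Hochberg over all 17097 genes). In all, 190 genes were called, or 1.11% of those tested (0.942% higher and 0.17% lower). On data simulated with independent errors the same fit called 42.3% of rises and 51.6% of falls of 1, so a gene not called may still differ. At an unadjusted p of 0.05, 5 members passed (13.9%), beside 8.29% of all genes (4.61% higher and 3.67% lower): Prkcq was higher on the Gfi1fl/fl arrays, and Ubash3a, Ptpn22, Malt1 and Themis were lower. The labels did not overlap for 14 members, 5 higher and 9 lower, and for 34.5% of all genes (16% higher and 18.5% lower). A difference of at least 0.5 in either direction was seen for 4 members and for 7.68% of all genes. The median difference of the members was -0.11, beside -0.02 over all genes. Over all genes but the dimmest 50% the median was -0.06, and 33 members were among those genes. Of the 36 member differences, 12 lay above 0, beside 44.6% of all genes. The 95% interval of the difference lay within 1 on either side of 0 for 32 members, the exceptions being Ubash3a, Ptpn22, Malt1 and Ppp3ca. The 32 include Plcg1, Sos1 and Nfatc2, whose signals were low, so that a narrow interval does not exclude a larger change in their RNA. Ptprc, Cd3d and Cd3g, also among the 32, lay at percentiles 99.8, 99.6 and 99.1 of mean signal. RMA compresses differences at that end of its range as well, so the same limit may hold for them. In sorted but bulk RNA, fewer cells of a type and less RNA per cell cannot be told apart.

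**Figure D1:**
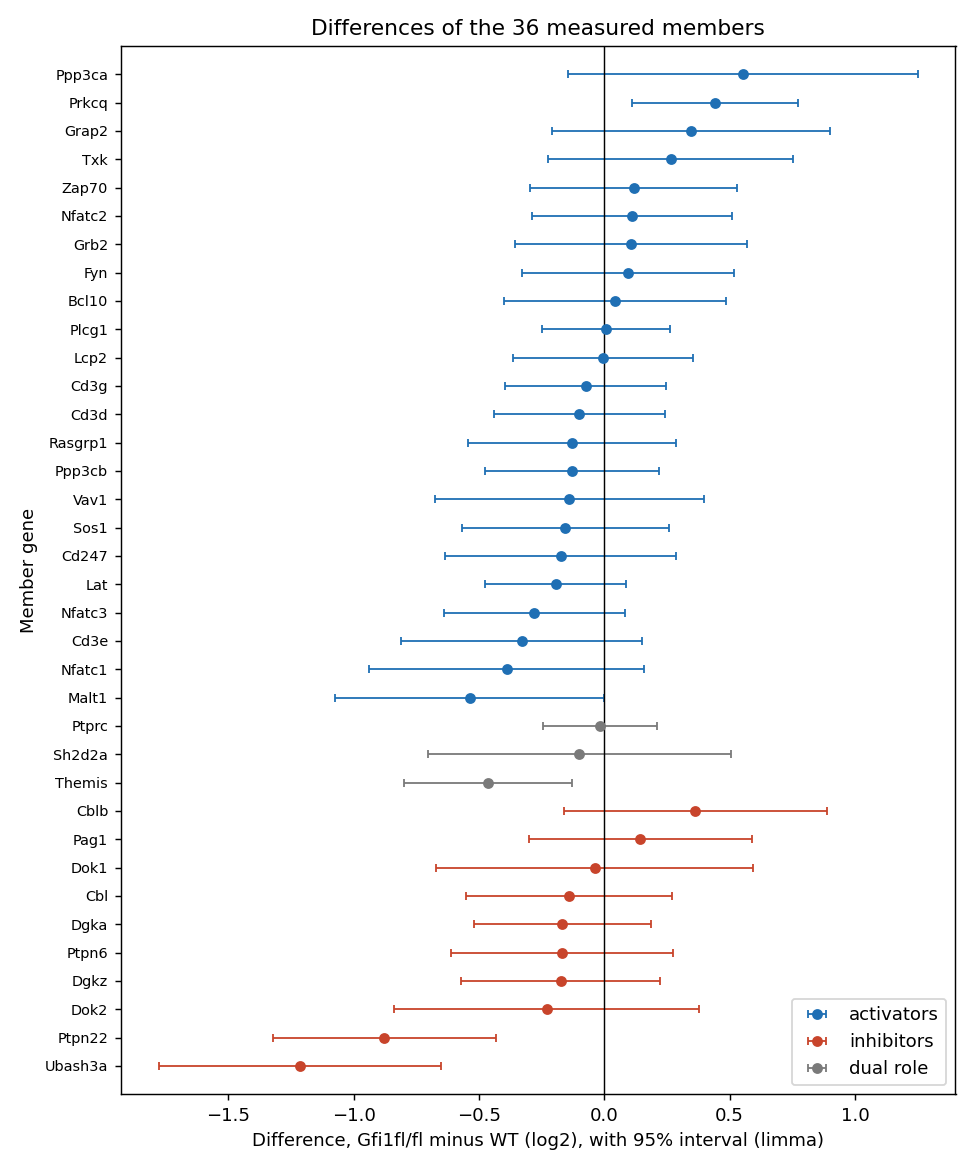
Difference between the labels (Gfi1fl/fl minus WT, log2) of the 36 measured members, with points for the fitted difference and bars for its 95% interval (limma). Ubash3a and Ptpn22 lie farthest from 0, at -1.21 and -0.88, and most other intervals cross 0.

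The 4 receptor chains, all of which were measured, had lower means on the Gfi1fl/fl arrays by 0.07 to 0.33, and none was called. Cd3e, the epsilon chain that pairs with the delta and gamma chains, read 9.18 and 9.20 on wild-type replicates 1 and 2 and 9.06 and 8.66 on Gfi1fl/fl replicates 1 and 2. Both Gfi1fl/fl values lay below both wild-type values, with a difference of -0.33 ± 0.20 (SE; adjusted p = 0.835, limma; 95% interval -0.81 to 0.15). Cd3d, the delta chain, read 12.48 and 12.40 on the wild-type arrays and 12.54 and 12.13 on the Gfi1fl/fl arrays. Cd3g, the gamma chain, read 11.93 and 11.89 on the wild-type arrays and 12.001 and 11.67 on the others. For these chains the Gfi1fl/fl arrays enclosed the wild-type values, with Gfi1fl/fl replicate 1 the highest of the 4 and replicate 2 the lowest. Cd247, the zeta chain that carries most of the complex's signalling motifs, read 11.24 and 10.94 on the wild-type arrays and 11.16 and 10.68 on the Gfi1fl/fl arrays, an overlap with a difference of -0.17 ± 0.20 (SE). Its other probe sets, all dimmer, differed by -0.39, -0.55 and -0.19, and none was called. The brightest of these did not overlap, with 10.50 and 10.48 on the wild-type arrays and 10.32 and 9.88 on the Gfi1fl/fl arrays. Without Gfi1fl/fl replicate 2 the differences of Cd3e, Cd3d, Cd3g and Cd247 were -0.13, 0.10, 0.09 and 0.07, and without Gfi1fl/fl replicate 1 they were -0.53, -0.30, -0.24 and -0.41.

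Of the proximal kinases, Fyn, Zap70 and Txk were measured, and their differences lay between 0.09 and 0.27. Zap70, the kinase that binds the phosphorylated receptor chains, read 9.92 and 9.67 on the wild-type arrays and 10.02 and 9.80 on the Gfi1fl/fl arrays. The labels overlapped, and the difference was 0.12 with a 95% interval of -0.30 to 0.53. Fyn, a Src-family kinase, read 8.76 and 8.81 on the wild-type arrays and 8.88 and 8.87 on the others, a difference of 0.09 ± 0.18 (SE). Txk, a Tec-family kinase, read 8.69 and 9.05 on the wild-type arrays and 9.23 and 9.04 on the Gfi1fl/fl arrays, an overlap with a difference of 0.27 ± 0.21 (SE; adjusted p = 0.914, limma). It was 0.08 without wild-type replicate 1 and 0.45 without wild-type replicate 2. None of the kinases was called.

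The 8 adaptors and first effectors split into 3 with differences above 0 and 5 below, from -0.19 for Lat to 0.35 for Grap2, and none was called. Lat is the membrane scaffold phosphorylated by ZAP-70, and Lcp2 (SLP-76) is its partner. Grap2 (GADS), which bridges the pair, read 7.72 and 7.33 on the wild-type arrays and 7.80 and 7.94 on the Gfi1fl/fl arrays. These values did not overlap, but the gap between the wild-type arrays was larger than the difference between the labels, 0.35 ± 0.23 (SE; adjusted p = 0.867, limma), which was 0.15 without wild-type replicate 2 and 0.54 without wild-type replicate 1. The others were Grb2 and Sos1, which recruit and activate Ras, Rasgrp1, the exchange factor that links diacylglycerol to Ras in thymocytes, Vav1 and Plcg1. Plcg1 and Sos1 had mean signals below the median gene, as did Nfatc2 among the NFAT genes, and a fall of those 3 genes could hardly have been detected with these probe sets.

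In the branch to NF-kappaB, the kinase and the paracaspase differed in opposite directions. Prkcq encodes protein kinase C-theta, which sets the branch in motion, and read 10.07 and 10.12 on the wild-type arrays and 10.57 and 10.51 on the Gfi1fl/fl arrays. The labels were well apart relative to the gaps within them, with a difference of 0.44 ± 0.14 (SE; unadjusted p = 0.0162, adjusted p = 0.360, limma). Malt1, the paracaspase that works in a complex with Bcl10, read 7.18 and 7.27 on the wild-type arrays and 6.62 and 6.75 on the others, a difference of -0.54 ± 0.23 (SE; unadjusted p = 0.0497, adjusted p = 0.601, limma). The other 2 Malt1 probe sets, both dimmer, differed by -0.11 and 0.20, so the value of Malt1 rested on its brightest probe set. Bcl10 differed by 0.04 and its labels overlapped.

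In the calcium branch, Ppp3ca and Ppp3cb encode catalytic subunits of the phosphatase calcineurin, which frees the NFAT factors to enter the nucleus. Ppp3ca had the largest difference upward of all members, 0.55 ± 0.29 (SE; adjusted p = 0.770, limma). It read 5.44 and 6.11 on the wild-type arrays and 6.31 and 6.34 on the Gfi1fl/fl arrays. Wild-type replicate 1 alone lay low: without it the difference was 0.22, and without wild-type replicate 2 it was 0.89. Its other probe set differed by 0.11, and the mean of both by 0.33. Nfatc1, the NFAT gene that receptor signals themselves induce, read 7.94 and 8.33 on the wild-type arrays and 7.66 and 7.83 on the others, a difference of -0.39 ± 0.23 (SE; adjusted p = 0.817, limma), while its second-brightest probe set differed by 0.38. Without wild-type replicate 2 the difference of Nfatc1 was -0.19, and without wild-type replicate 1 it was -0.59. Of the 5 genes of this branch, 4 did not overlap between the labels, 1 higher and 3 lower, beside 34.5% of all genes, and none was called.

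Of the 10 measured inhibitors, 8 had differences below 0 and 2 above, with a median of -0.17. It was -0.07 for the 23 activators, 10 of which lay above 0, and -0.02 for all genes, 44.6% of which lay above 0. Without the dimmest 50% of genes the medians were -0.17 for inhibitors, -0.087 for activators and -0.06 for all genes left. With 1 array left out the median of the inhibitors ranged from -0.26 to -0.06, without wild-type replicates 1 and 2, and that of the activators turned to 0.09 without Gfi1fl/fl replicate 2. Ubash3a encodes STS-2 (TULA), a histidine-phosphatase family protein that dampens receptor signalling in T cells. It read 7.24 and 7.38 on the wild-type arrays and 5.99 and 6.21 on the Gfi1fl/fl arrays. The lower pair lay more than 1 unit below the higher pair, a 2.32-fold ratio of signals with a difference of -1.21 ± 0.24 (SE; 95% interval -1.78 to -0.65; unadjusted p = 0.00140, adjusted p = 0.0878, limma). Its other probe set, which was dimmer, read 5.10 and 6.09 on the wild-type arrays and 5.12 and 5.25 on the Gfi1fl/fl arrays. Those values overlapped, with a difference of -0.41 ± 0.35 (SE; adjusted p = 0.918, limma, in the fit of all probe sets).

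Ptpn22 encodes the tyrosine phosphatase PEP, which removes activating phosphates from Lck and ZAP-70, and had 1 probe set. It read 9.64 and 9.89 on the wild-type arrays and 8.999 and 8.77 on the Gfi1fl/fl arrays. The labels did not overlap, and the difference of -0.88 ± 0.19 (SE; 95% interval -1.32 to -0.43; unadjusted p = 0.00229, adjusted p = 0.116, limma) was a 1.84-fold ratio. Each of these genes was called in a single fit with 1 array left out, Ubash3a without Gfi1fl/fl replicate 2 (adjusted p = 0.0225) and Ptpn22 without Gfi1fl/fl replicate 1 (adjusted p = 0.0231, limma), fits in which 2.73% and 2.78% of all genes were called. Without wild-type replicate 1 or 2, no member was called, beside 0.614% and 0.602% of all genes. Over all alternatives the adjusted p ranged from 0.0225 to 0.867 for Ubash3a and from 0.0231 to 0.534 for Ptpn22.

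**Figure D2:**
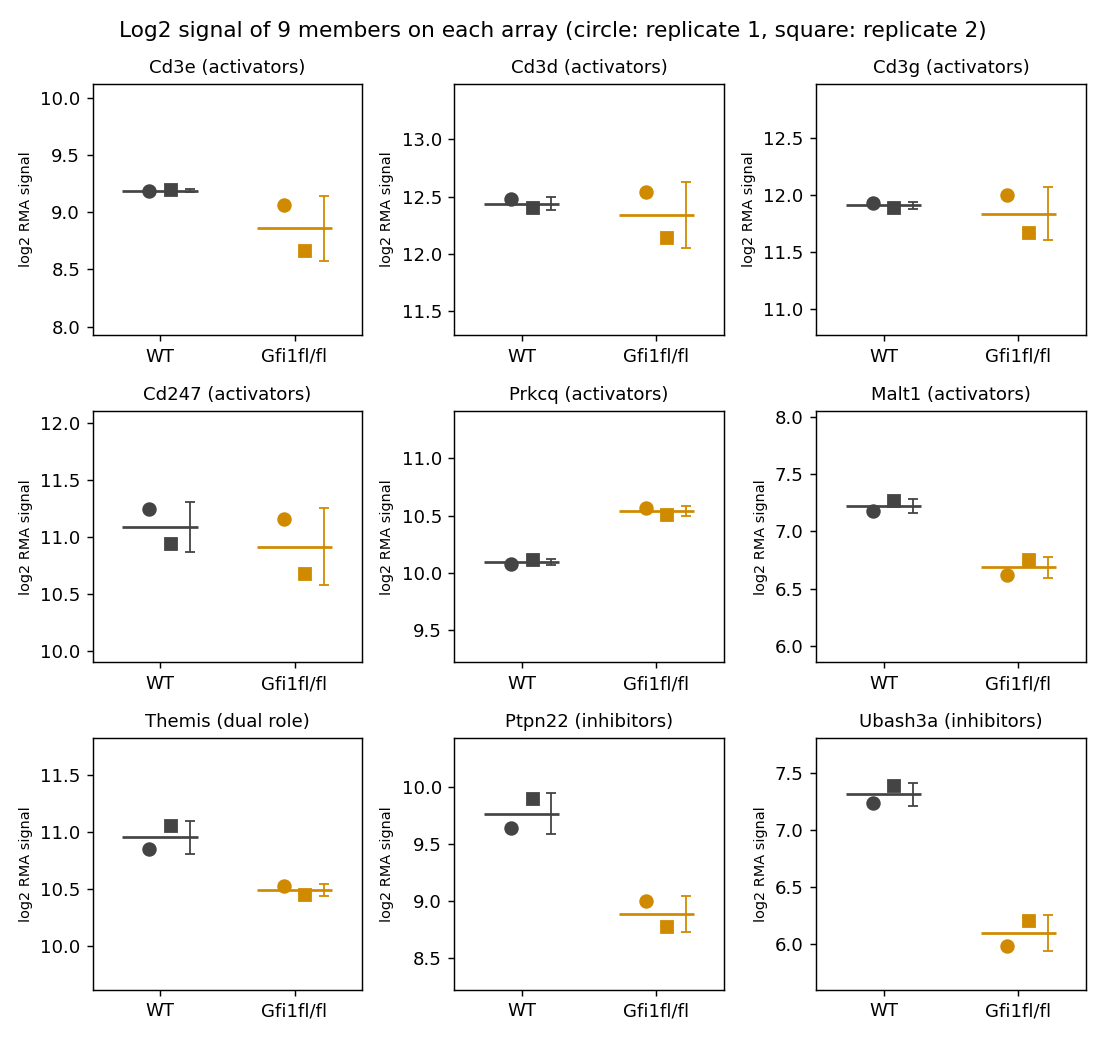
Log2 signal of 9 members on each array, with circles for replicate 1, squares for replicate 2, lines for the mean of a label and bars for its SD (n = 2). Each panel spans the same range of signal, and the labels do not overlap for Cd3e, Prkcq, Malt1, Themis, Ptpn22 and Ubash3a. For the receptor chains, Cd3e included, the Gfi1fl/fl arrays differ from each other.

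The sequences before the annotated starts of Ubash3a and Ptpn22 are shown because these members differed most between the labels and the study concerns the DNA-binding factors GFI1 and FOXO1. They are RefSeq sequences of build GRCm38.p6, 250 bases upstream of each start, on the plus strand. Neither AATC, the core of the GFI1 site, nor GTAAACA, a FOXO site, occurs in them on either strand, so no base is in capitals. Ubash3a has 1 start in the table (chr17:31207816-31208065) and Ptpn22 has 2 (chr3:103859545-103859794 and chr3:103860027-103860276).
Ubash3a: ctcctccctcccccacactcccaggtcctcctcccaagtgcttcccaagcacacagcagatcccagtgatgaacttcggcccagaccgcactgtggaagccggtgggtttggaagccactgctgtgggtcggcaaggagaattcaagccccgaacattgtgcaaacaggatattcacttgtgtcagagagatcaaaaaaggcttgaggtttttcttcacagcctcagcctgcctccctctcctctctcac
Ptpn22 first start: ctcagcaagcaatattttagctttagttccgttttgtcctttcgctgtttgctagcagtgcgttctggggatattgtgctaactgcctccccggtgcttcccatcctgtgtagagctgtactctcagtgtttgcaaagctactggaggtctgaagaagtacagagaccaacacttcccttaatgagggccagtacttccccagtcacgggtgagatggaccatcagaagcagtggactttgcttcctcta
Ptpn22 second start: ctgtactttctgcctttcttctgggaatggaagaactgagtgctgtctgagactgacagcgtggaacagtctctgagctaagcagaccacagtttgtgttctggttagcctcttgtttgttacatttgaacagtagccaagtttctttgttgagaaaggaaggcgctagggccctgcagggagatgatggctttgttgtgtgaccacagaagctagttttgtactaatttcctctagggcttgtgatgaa
Of 36 members, 29 had a promoter in the table, with 42 starts in all. AATC was found before 20 of the 42 (47.6%) and before 69% of all 32851 starts. GTAAACA was found before 3 (7.14%), those of Grap2, Nfatc2 and Nfatc3, and before 3.17% of all starts. Such matches are letters in a window of 250 bases, and their absence says nothing about binding elsewhere.

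Among the other inhibitors, Cblb had the largest difference upward. It encodes a ubiquitin ligase that sets the threshold for T cell activation, and read 6.82 and 6.90 on the wild-type arrays and 7.24 and 7.21 on the Gfi1fl/fl arrays. The labels did not overlap, with a difference of 0.36 ± 0.22 (SE; adjusted p = 0.829, limma), and its other probe set differed by 0.56. Its relative Cbl differed by -0.14 and overlapped. Pag1, the membrane anchor of Csk, read 10.64 and 10.97 on the wild-type arrays and 10.75 and 11.15 on the others, an overlap with a difference of 0.14 ± 0.19 (SE). Dok2, an adaptor that recruits the Ras GTPase-activating protein, read 7.71 and 7.82 on the wild-type arrays and 7.82 and 7.26 on the Gfi1fl/fl arrays, where only replicate 2 was low. The phosphatase gene Ptpn6 (SHP-1), the diacylglycerol kinase genes Dgka and Dgkz and the adaptor gene Dok1 had differences from -0.17 to -0.04, and each overlapped between the labels.

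Of the genes with roles in both directions, Themis differed most. THEMIS is a thymocyte protein that binds GRB2 and SHP-1 and is needed for positive selection. The gene read 10.85 and 11.06 on the wild-type arrays and 10.53 and 10.45 on the Gfi1fl/fl arrays, a difference of -0.46 ± 0.14 (SE; unadjusted p = 0.0136, adjusted p = 0.327, limma). All 3 of its probe sets had lower means on the Gfi1fl/fl arrays, by 0.35 to 0.50. Ptprc, which encodes CD45, the phosphatase that both primes and restrains Src-family kinases, differed by -0.02 with a 95% interval of -0.24 to 0.21. Sh2d2a, which encodes the LCK-binding adaptor TSAd, differed by -0.10 and overlapped.

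Activators and inhibitors were contrasted within each array by subtracting the mean of the 10 inhibitors from that of the 23 activators. The contrast was -0.29 and -0.40 on the wild-type arrays and -0.07 and -0.17 on the Gfi1fl/fl arrays, higher by 0.23 on the latter, and the labels did not overlap. With second-brightest probe sets, which 21 members had, the difference turned to -0.10. Ptpn22, with 1 probe set, was not among them, so the genes compared were not the same. No test was made of the contrast. The mean of the activators differed by -0.02 between the labels and that of the inhibitors by -0.25. Left without Ubash3a and Ptpn22, genes chosen after their values were seen, the contrast read -0.45 and -0.56 on the wild-type arrays and -0.42 and -0.53 on the Gfi1fl/fl arrays, which overlap, and the difference was 0.03. The other 8 inhibitors had a mean difference of -0.05.

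Probe sets of the same gene did not always read alike. The 36 members had 74 probe sets, 15 members with 1 and 21 with more, up to 5. For 13 of the 21, all probe sets differed in the same direction, among them Themis, Cd247, Nfatc3, Cbl, Cblb, Grap2 and Ubash3a. The other 8 included Malt1, Nfatc1, Ppp3cb and Grb2. Among all 7180 genes with several probe sets, 52% had them all in the same direction. None of the 74 probe sets was called in the limma fit of all 28898 named probe sets, of which 0.879% were called, and 6 had an unadjusted p of at most 0.05, beside 8.03% of all.

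**Figure D3:**
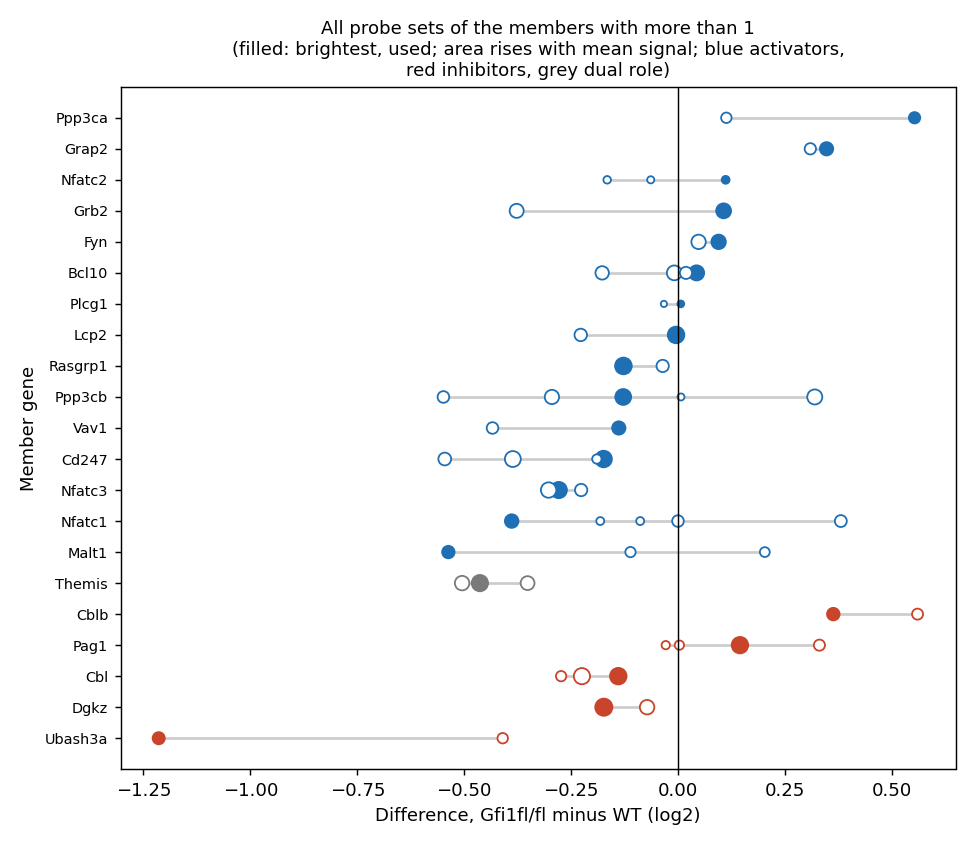
Difference between the labels (Gfi1fl/fl minus WT, log2) of every probe set of the 21 members that had more than 1, with filled points for the probe set used and larger points for brighter probe sets. The 3 Themis probe sets lie together, while those of Ubash3a lie at -1.21 and -0.41.

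Arrays of the same label also differed among the members. The label difference was larger than both gaps between replicates for 8 of the 36 members: Ubash3a, Ptpn22, Malt1, Themis, Prkcq, Cblb, Lat and Fyn. The same held for 24% of all genes. The median absolute gap was 0.23 between the wild-type arrays and 0.18 between the Gfi1fl/fl arrays, and the median absolute label difference was 0.16. Over all genes these medians were 0.160, 0.162 and 0.112, each smaller than among the members. However, all genes include the dim ones, where RMA compresses differences, while only 3 members had means below the median gene. The medians were not taken over genes of like signal. Within the Gfi1fl/fl label, 23 of the 36 members were lower on replicate 2 than on replicate 1, beside 56.6% of all genes. They included all 4 receptor chains, by 0.33 to 0.48, and the 3 kinases, the diacylglycerol kinase and Dok genes and the 3 genes with roles in both directions. Dok2 and Sh2d2a, with gaps of -0.56 and -0.49, lay farther apart than any receptor chain. Proliferation genes went the other way. The mean of 25 measured cell cycle genes was 7.88 on Gfi1fl/fl replicate 1 and 9.52 on replicate 2, with all 25 higher on the latter, and 8.63 and 9.005 on wild-type replicates 1 and 2. Their part in the values of the members was not tested.

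**Figure D4:**
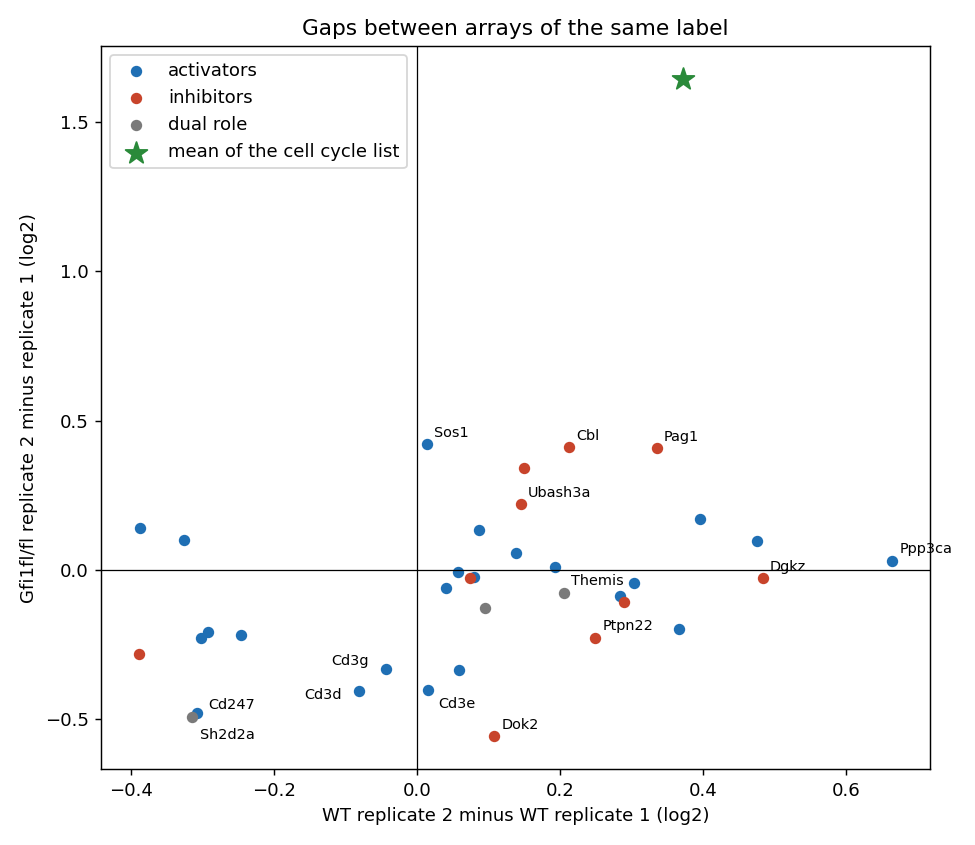
Gap between the wild-type arrays (x axis) and between the Gfi1fl/fl arrays (y axis), each replicate 2 minus replicate 1 in log2 units, for the 36 members and for the mean of 25 cell cycle genes (star). The 4 receptor chains lie between -0.48 and -0.33 on the y axis.

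Other genes of the pathway were counted from 2 further lists. Of 78 listed genes, 64 were measured and none was called, with 5 higher and 3 lower at an unadjusted p of 0.05 (12.5%, beside 8.29% of all genes) and a median of -0.05. Among 36 positive components, those with the smallest p were Rel, an NF-kappaB subunit gene that differed by 1.20 (4.53 and 4.16 on the wild-type arrays, 5.37 and 5.72 on the Gfi1fl/fl arrays; adjusted p = 0.116, limma), and Vav3, a relative of Vav1 that differed by 0.99 (adjusted p = 0.294). Among 28 negative components they were Sla, which encodes the receptor-degrading adaptor SLAP and differed by -0.41 (adjusted p = 0.238), and Spred1, a Ras pathway inhibitor gene that differed by -0.77 (adjusted p = 0.311).

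Across whole arrays, medians lay between 3.53 and 3.55. Of 10 markers of double-positive thymocytes, 9 were measured and all had means above the median gene, including Cd4, Cd8a, Cd8b1, Rag1 and Rag2. Only Dntt, the terminal transferase gene, was called lower (-0.69, adjusted p = 0.0413, limma). All 4 measured markers of mature T cells were called higher: Klf2, S1pr1, Gimap4 and Itgb7 differed by 1.43 to 5.20, and their mean level was 5.22 and 4.86 on the wild-type arrays and 8.35 and 8.46 on the Gfi1fl/fl arrays. A further 30 measured markers were of B cells, myeloid cells, gamma-delta T and innate lymphoid cells, epithelium, and erythroid cells and platelets. Of these, 24 had means below the median gene, and only Cd163l1 was called (7.45 higher). At an unadjusted p of 0.05 (limma), 4 of the 8 gamma-delta T and innate lymphoid markers were higher (50%), beside 8.29% of all genes. They were Cd163l1, Blk (1.24 higher), Nkg7 (0.99) and Il2rb (0.54). At that p, Epcam (1.68) and Flt3 (0.52) were also higher, and Cd79b (-1.23) and Krt8 (-0.30) lower. Hba-a1 read 7.35 and 10.17 on the wild-type arrays and 8.72 and 10.45 on the Gfi1fl/fl arrays. The part of these markers in the members' values was not tested.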

How the data were processed

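Biotin-labelled RNA was hybridised to Affymetrix arrays, and the deposited values are log2 signals per probe set, made with RMA in Affymetrix Expression Console 1.1 per the submitters' processing notes. They ran from 2.19 to 13.5 with array medians of 3.53 to 3.55 and were used unchanged. RMA compresses differences at the ends of its range. Detection calls were not used here, and the number of arrays limits the precision. Genes were named from the platform annotation: 28898 of 45037 probe sets had 1 gene name, 551 had several and 15588 had none. Entrez identifiers of 28689 matched RefSeq (GRCm38.p6). The members, their roles and all gene lists were chosen with earlier results of these data known. Genes were compared with limma 3.58.1 (lmFit, eBayes with an intensity trend, R 4.3.3, two-sided, no covariate). The fit had 2 residual degrees of freedom plus 5 from the prior and was tried on simulated data. Those data had normal errors, independent between genes and arrays, with variances drawn from the fit's own prior. Variation shared by many genes on an array was thus not simulated, and a false share near the threshold was built in. In 20 simulations with 200 changed genes each, the fit called 42.3% of rises and 51.6% of falls of 1 log2 unit. For changes of 2 units these shares were 93.5% and 91.9%, and on average 5.06% of the calls were false. Array values are given for members with an unadjusted p of at most 0.05, the 3 largest differences each way among activators and inhibitors, receptor chains and kinases. Other pathway genes are named by the 2 smallest p per list. Each of these was tried in turn instead: blocking on replicate number, centring arrays on their median, repeating quantile normalization, removing the dimmest 30% or 50% of genes, a prior with no trend, a robust prior, averaging a gene's probe sets, taking its second-brightest probe set, and omitting 1 array. Tables were read with Python 3.11.15 and plotted with matplotlib 3.10.9.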

Additional observations from a re-analysis of the deposited data

How the results depend on the processing

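No member tested was called under the 9 alternatives that kept all arrays (33 members were tested without the dimmest 50% of genes and 21 with second-brightest probe sets), the replicate block included (183 genes called in all, beside 190 without it). The labels give the replicate numbers no shared animal or day. Deviations of same-numbered arrays correlated at 0.30 over all genes and at 0.36 over the brighter 50%. With 2 pairs these values cannot show whether the samples were paired, and the main fit does not pair them. The block changed no call of a member. Without 1 array, 0 to 1 members and 103 to 475 genes were called: 103 and 105 without wild-type replicates 2 and 1, 467 and 475 without Gfi1fl/fl replicates 2 and 1. With the second-brightest probe set, 7180 genes and 21 members were left, Ptpn22 not among them, and 56 genes were called. The inhibitors' median was then -0.072, the activators-minus-inhibitors difference was -0.10 and Nfatc1 differed by 0.38. Without 1 array, the median of the activators ranged from -0.079 to 0.092, that of the inhibitors from -0.26 to -0.064 and their contrast from 0.17 to 0.28. Among the 18 members with array values given, the sign changed in the same fits for Cd3d, Cd3g, Cd247, Dok2, Pag1 and Zap70. The differences ranged from -0.30 to 0.10 for Cd3d, -0.24 to 0.092 for Cd3g and -0.41 to 0.066 for Cd247. They ranged from -0.51 to 0.049 for Dok2, -0.059 to 0.35 for Pag1 and -0.0056 to 0.24 for Zap70. Over all alternatives, only 14 of the 36 members kept their sign, among them Ubash3a, Ptpn22, Themis, Prkcq, Malt1, Cblb and Ppp3ca. The block, the removal of dim genes and the other priors leave a difference as it is, so they could not change a sign. Nor could the alternatives with other probe sets for members with 1 probe set, such as Ptpn22 and Prkcq. With 1 array left under a label, it is assumed to vary like the others. The causes were not tested. Signals near the bottom of the range limit what could be seen for Plcg1, Sos1 and Nfatc2.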

Other observations

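The receptor's own alpha chain was not among the members but was on the list of double-positive markers. Its 1 probe set named Tcra, which can read only part of a locus with many rearranging segments, gave 4.47 and 5.64 on the wild-type arrays and 6.04 and 6.44 on the Gfi1fl/fl arrays. The labels did not overlap, and the difference was 1.19 ± 0.40 (SE; unadjusted p = 0.0219, adjusted p = 0.419, limma). The gap between the wild-type arrays was nearly as large as the difference between the labels.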
